A study of Mus musculus with 5 samples.

Results

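The nuclei described here were the brown adipose tissue (iBAT) nuclei in which 6 genes, Ugp2, Depp1, Pfkp, Ak4, Egln3 and Ffar4, took the largest share of the transcripts. They came from the single-nucleus RNA matrix of 3-month-old mice, which holds 20307 barcodes of 50307 in the whole series. A gate first kept barcodes with at least 1000 unique molecular identifiers (UMIs, each counted as 1 captured RNA molecule), at least 0.8% of UMIs in 8 adipocyte genes (Adipoq, Plin1, Plin4, Lipe, Pparg, Cidec, Pnpla2 and Acsl1) and at most 2 UMIs summed over 9 genes of other cell types (Ptprc, Mrc1, Flt1, Cyyr1, Pdgfra, Abcc9, Ttn, Skap1 and Cadm2). It left 13673 adipocyte nuclei. Of these, the 10% with the highest score, the percent of UMIs in the 6 genes, were taken within each of the 2 libraries, which gave 1368 high-score nuclei and 12305 other gated nuclei to compare them with. The nuclei were thus chosen by the measured levels of the 6 genes, which are given as a description.

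The 3-month-old mice were littermate controls (WT), which carried either Ucp1-Cre+/- or STX4 fl/fl, and Ucp1-STX4KO mice, which carried Ucp1-Cre+/- with STX4 fl/fl, all males on a C57BL/6J background. STX4, syntaxin 4, is a membrane fusion protein. The Cre recombinase was driven by the Ucp1 promoter, so deletion was directed at cells that make Ucp1. Aging libraries of C57BL/6J mice at 2, 12 and 24 months were read only as libraries that the choice of nuclei did not use. Nuclei were sorted after a homogenization step meant to enrich those of brown adipocytes. The methods name 4 male mice without saying how they were divided. Libraries were told apart by the barcode suffix, a number that no label ties to a genotype. Each matrix was therefore 1 pooled sample, genotypes and ages were not compared, nuclei were not treated as replicates and no p-value was computed. Values from suffix 1 and suffix 2 are given side by side, and all intervals are exact 95% intervals for counting error only.

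Brown adipocytes burn fatty acids and glucose to make heat, and Ucp1 is the mitochondrial protein that lets them do so. When oxygen is scarce, prolyl hydroxylases of the EGLN family act less on hypoxia-inducible factors, which then raise genes for glycolysis, blood vessel growth, collagen modification and mitophagy. These factors bind DNA at a short core, RCGTG, in which R is A or G. Among the 6 genes, Ugp2 makes UDP-glucose, the donor for glycogen synthesis, Pfkp is the platelet-type phosphofructokinase of glycolysis, and Ak4 is a mitochondrial adenylate kinase. Egln3 is a prolyl hydroxylase that is itself a target of hypoxia-inducible factors, Ffar4 is a receptor for long-chain fatty acids, and Depp1 is a FOXO target gene named for its induction in decidua by progesterone.

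The bases just before the transcription start are shown for 2 of the 6 genes and for 3 genes of the hypoxia or glycolysis lists that were higher in the high-score nuclei of both libraries, because they hold the letters ACGTG on either strand. Sequences are from RefSeq on GRCm38.p6, 250 bases up to the base before the start, read on the gene's strand. Capitals mark ACGTG or its reverse complement CACGT, and the 2 overlap where CACGTG is read. The Ugp2 window (chr11:21371268-21371517, minus strand, the first of 2 listed starts) reaches into an exon of the noncoding gene Gm12043 at its far end, and the Ldha window is the first of 2 listed starts.
Ugp2: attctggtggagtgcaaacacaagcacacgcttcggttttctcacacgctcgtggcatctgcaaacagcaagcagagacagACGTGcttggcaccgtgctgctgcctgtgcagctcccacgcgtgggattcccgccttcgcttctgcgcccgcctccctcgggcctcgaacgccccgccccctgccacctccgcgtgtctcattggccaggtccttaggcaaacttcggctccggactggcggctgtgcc
Egln3 (chr12:54203875-54204124, minus strand): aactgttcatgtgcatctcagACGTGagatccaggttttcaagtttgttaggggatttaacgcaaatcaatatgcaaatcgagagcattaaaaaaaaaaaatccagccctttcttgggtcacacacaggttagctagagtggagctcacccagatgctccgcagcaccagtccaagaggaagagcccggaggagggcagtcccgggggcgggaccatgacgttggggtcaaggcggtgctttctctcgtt
P4ha1 (chr10:59323046-59323295, plus strand): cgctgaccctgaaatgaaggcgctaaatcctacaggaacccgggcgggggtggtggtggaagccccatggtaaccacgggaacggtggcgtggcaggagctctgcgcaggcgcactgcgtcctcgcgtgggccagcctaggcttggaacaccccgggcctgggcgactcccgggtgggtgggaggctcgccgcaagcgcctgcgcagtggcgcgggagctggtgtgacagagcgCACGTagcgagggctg
Ldha (chr7:46845554-46845803, plus strand): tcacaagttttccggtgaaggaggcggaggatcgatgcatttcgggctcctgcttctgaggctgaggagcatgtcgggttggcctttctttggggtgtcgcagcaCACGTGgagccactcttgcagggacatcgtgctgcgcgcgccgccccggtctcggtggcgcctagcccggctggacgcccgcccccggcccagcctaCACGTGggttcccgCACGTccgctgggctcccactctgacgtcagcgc
Hk2 (chr6:82774455-82774704, minus strand): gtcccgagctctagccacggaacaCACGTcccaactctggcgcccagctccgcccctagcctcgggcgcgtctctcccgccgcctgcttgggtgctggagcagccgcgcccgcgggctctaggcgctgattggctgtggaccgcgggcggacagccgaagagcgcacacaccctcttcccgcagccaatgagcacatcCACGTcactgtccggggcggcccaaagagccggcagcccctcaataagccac
In Ugp2 the match lay 169 bases and in Egln3 229 bases before the start, and in P4ha1 it lay 16 bases before it. Ldha held 5 matches, of which the reverse and forward ones at 145 and 144 bases, and at 48 and 47 bases, overlapped. Hk2 held 2, at 226 and 52 bases. Only the form with A was searched. Among the remaining rule genes Ak4 held it at 1 of 4 listed starts, and no match was found in the windows of Pfkp, Depp1 and Ffar4. Egln1 held it 68 bases before its start, Pkm and Vegfa at 1 of 2 listed starts each, and Pfkl did not. Over all 32851 listed start sites, 16.6% had a match. By gene, at least 1 listed start had one in 15 of the 45 genes with a listed promoter among the 65 higher in high-score nuclei (33.3%), in 33 of 183 among the 258 lower (18.0%) and in 1740 of 6438 among all genes tested (27.0%).

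The score was spread without a gap around the threshold, so the high-score nuclei were a range of the score, and no clustering was run to see whether they form a group of their own. In suffix 1, 971 of 9709 gated nuclei were taken, and the nuclei just inside and just outside the threshold both had a score of 0.126%. In suffix 2, 397 of 3964 were taken, at 0.397% inside and 0.397% outside. The median score was 0.186% against 0.0286% for the other gated nuclei in suffix 1, and 0.527% against 0.0468% in suffix 2. Within 20% of the threshold on either side lay 598 nuclei of suffix 1 and 311 of suffix 2, and 17.4% and 14.6% of gated nuclei had a score of 0. The median depth was 6448 UMIs for high-score nuclei and 6168.5 for the others in suffix 1, and 5633 and 5207 in suffix 2, so depth moved slightly with the score. No barcode sequence was shared between the high-score nuclei of the libraries, and 12 were shared among all gated nuclei.

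**Figure D1:**
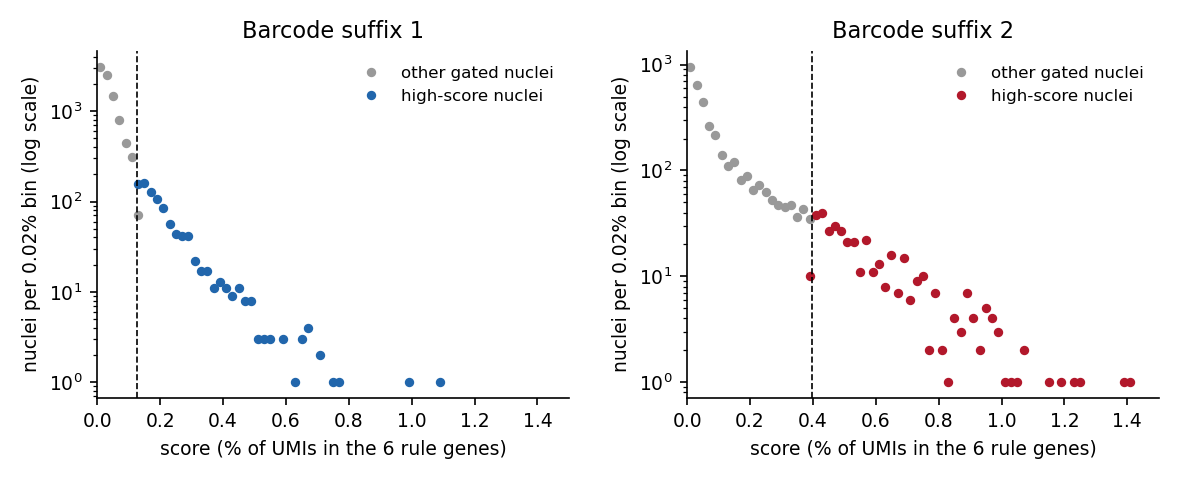
Spread of the score over gated nuclei of each library. The x axis is the percent of UMIs in the 6 rule genes, the y axis (log scale) the number of nuclei per 0.02% bin, and the dashed line the threshold of 0.126% in suffix 1 and 0.397% in suffix 2. The bins run through the threshold without a gap.

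The libraries differed in what made up the score. Levels are CPM, UMIs per 1000000 UMIs summed over a group of nuclei, and are compared between groups of nuclei and not between genes. Ugp2 (ENSMUSG00000001891, chromosome 11, 21321138 to 21371201, GRCm38) stood at 846 CPM in high-score nuclei of suffix 1 and 96.6 in the others, and at 4936 against 601 in suffix 2. Pfkp (ENSMUSG00000021196, chromosome 13, 6579768 to 6648777) was at 972 against 173 CPM and at 554 against 151. Ugp2 held 38.3% of the rule genes' UMIs in the high-score nuclei of suffix 1 and 82.7% in suffix 2, while Pfkp held 44.0% and 9.28%. In suffix 2 the high-score nuclei were thus mainly Ugp2-high nuclei.

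The 4 other rule genes were sparser. Egln3 was at 67.6 against 14.1 CPM in suffix 1 and 92.1 against 23.0 in suffix 2. Ffar4 was at 233 against 61.3 and 375 against 90.3 CPM. Ak4 gave 183 UMIs in the high-score nuclei of suffix 1 (26.4 against 2.91 CPM) and 26 in suffix 2 (9.85 against 2.58 CPM). Depp1 was at 65.0 against 6.66 CPM in suffix 1, and at 4.92 against 3.85 CPM in suffix 2, where it gave 13 UMIs in high-score nuclei and hardly entered the score.

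Each gene was then measured in nuclei ranked by the other 5 alone, so that its own level did not enter the ranking. The 6 genes had been chosen together with earlier results of these data known. Their rise together is thus a description and not a separate test of the choice. In suffix 1 all 6 were higher in the top 10%, from 2.75 times (2.58 to 2.92) for Ffar4 and 3.70 times (3.58 to 3.83) for Pfkp to 5.10 times (4.91 to 5.29) for Ugp2 and 7.59 times (6.62 to 8.71) for Depp1. In suffix 2 the ratios were 3.05 (2.96 to 3.13) for Ugp2, 2.95 (2.77 to 3.15) for Pfkp, 2.89 (2.44 to 3.42) for Egln3 and 2.73 (2.51 to 2.96) for Ffar4. For Depp1 it was 1.28 (0.654 to 2.31), an interval that includes 1. The membership itself moved with Ugp2 in suffix 2: ranking without it kept 43.3% of the high-score nuclei there and 79.4% in suffix 1, while ranking without Pfkp kept 91.2% and 73.3%.

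**Figure D2:**
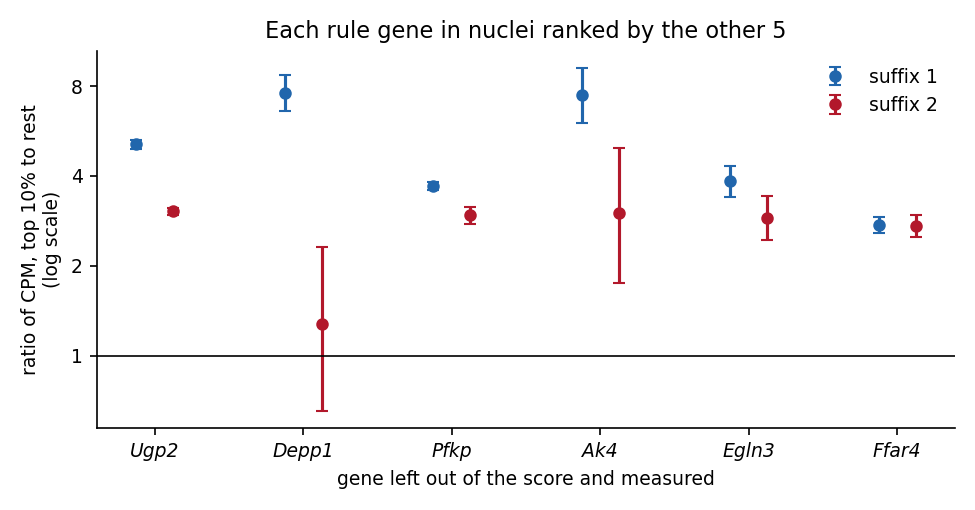
Ratio of CPM (y axis, log scale) between the top 10% of gated nuclei and the rest for each rule gene (x axis) when the nuclei were ranked by the other 5 genes. Points are ratios and bars exact 95% counting intervals for suffix 1 (blue) and suffix 2 (red). All 12 points lie above 1, and the interval of Depp1 in suffix 2 (0.654 to 2.31) includes 1.

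Outside the rule and gate genes, 8113 genes had at least 200 UMIs in the gated nuclei of each library. A gene was called higher when its CPM ratio of high-score to other gated nuclei was at least 1.5 in both libraries, and lower when it was at most 1/1.5 in both. By this rule 65 genes (0.801%) were higher and 258 (3.18%) lower. The counting interval excluded 1 in both libraries for all 65 of the former and for 248 of the latter. In single libraries the share at 1.5 or more was 1.89% in suffix 1 and 7.84% in suffix 2, and the share at 1/1.5 or less was 5.13% and 17.4%. Suffix 2 thus showed the broader contrast, and 32 genes passed the fold in opposite directions (14 higher in suffix 1 and lower in suffix 2, 18 the reverse).

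Few glycolysis genes were higher by 1.5 times in both libraries, though the list lay above all genes. Of 23 tested genes 4 were called higher, Hk2, Pfkl, Pkm and Ldha, against the 0.801% of all genes. Called lower was 1, Pfkfb1, against 3.18% of all. The median ratio of the list was 1.18 in suffix 1 and 1.42 in suffix 2, beside 0.974 and 0.943 for all genes. Pkm, pyruvate kinase (chromosome 9, 59656368 to 59679375), was at 639 against 316 CPM in suffix 1, a ratio of 2.02 (1.96 to 2.09), and at 298 against 111 CPM in suffix 2, a ratio of 2.68 (2.47 to 2.90). Hk2, the hexokinase of insulin-responsive tissue (chromosome 6, 82725025 to 82774454), was at 957 against 613 and 1294 against 745 CPM, with ratios of 1.56 and 1.74. Both stood above their comparison nuclei in each library by more than counting error.

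Ldha, the lactate dehydrogenase subunit that favours lactate (chromosome 7, 46841475 to 46855627), had 240 against 134 CPM and 174 against 110 CPM, ratios of 1.79 and 1.57. Pfkl, the liver-type phosphofructokinase (chromosome 10, 77986947 to 78010083), had 176 against 112 and 171 against 95.5 CPM. In suffix 1 alone 6 of the 23 genes reached 1.5, against 1.89% of all genes, and in suffix 2 alone 11 did, against 7.84%. At 1/1.5 or less were 1 in suffix 1, against 5.13% of all genes, and 3 in suffix 2, against 17.4%. Of the enzymes from aldolase to enolase none was called: Aldoa had ratios of 1.33 and 1.57, Tpi1 1.52 and 1.37, Gapdh 1.18 and 1.83, Pgk1 1.10 and 1.36, Pgam1 1.21 and 1.58, and Eno1 1.10 and 1.77. Another enolase, Eno3, was below 1 in both libraries, at 0.988 and 0.575. Gpi1, which converts glucose 6-phosphate to fructose 6-phosphate, was at 2.00 and 1.41. Pdk4, the kinase that holds pyruvate out of the TCA cycle, was at 1.38 and 2.25.

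The 1 glycolysis gene called lower was Pfkfb1, a bifunctional enzyme that makes and removes the phosphofructokinase activator fructose 2,6-bisphosphate. It was at 121 against 184 CPM in suffix 1, a ratio of 0.658 (0.612 to 0.706), and 91.7 against 261 CPM in suffix 2, a ratio of 0.351 (0.307 to 0.399). Its paralogs Pfkfb2 and Pfkfb3 had ratios of 1.12 and 1.42, and of 0.918 and 0.872. The glucose transporter Slc2a4 was at 1.03 and 1.39, and Slc2a1 gave too few UMIs to be tested, with 4.62 against 3.29 CPM and 3.03 against 2.90 CPM.

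Hypoxia response genes passed the fold more often than all genes in both libraries, 11 of 27 in suffix 1, beside 1.89% of all genes, and 9 of 27 in suffix 2, beside 7.84%. Of the 27 tested genes 5 were called higher, beside 0.801% of all, namely Egln1, Vegfa, P4ha1, Bhlhe40 and Ldha, and none lower in both libraries. The list's median ratio was 1.30 in suffix 1 and 1.28 in suffix 2. P4ha1, a subunit of collagen prolyl 4-hydroxylase (chromosome 10, 59323296 to 59373304), was at 332 against 127 CPM in suffix 1, a ratio of 2.63 (2.51 to 2.75), and at 515 against 290 CPM in suffix 2, a ratio of 1.78 (1.67 to 1.88). Egln1, the main oxygen-sensing prolyl hydroxylase (chromosome 8, 124908587 to 124949324), was at 507 against 258 CPM and 302 against 116 CPM, ratios of 1.96 (1.89 to 2.04) and 2.61 (2.40 to 2.82). Vegfa, which drives vessel growth (chromosome 17, 46016993 to 46032369), was at 1928 against 1112 and 1339 against 796 CPM, ratios of 1.73 and 1.68. Bhlhe40, a transcriptional repressor, was at 36.0 against 19.0 and 90.9 against 29.6 CPM, ratios of 1.89 and 3.07.

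Of the 11 hypoxia response genes past the fold in suffix 1, 6 were not past it in suffix 2. The collagen hydroxylase subunit P4ha2 had a ratio of 3.67 (3.22 to 4.17) in suffix 1 and 1.2 (0.829 to 1.70) in suffix 2. Bnip3, a mitophagy receptor, had 2.82 (2.73 to 2.91) and 1.28 (1.2 to 1.37). Kdm3a, a histone demethylase, had 2.82 (2.70 to 2.94) and 1.45 (1.30 to 1.61), and Mxi1, a MYC antagonist, 2.76 (2.59 to 2.95) and 1.38 (0.936 to 1.98). For P4ha2, Bnip3, Kdm3a and Mxi1 the intervals of the libraries do not overlap. Of the factors themselves Hif1a was at 1.21 and 1.01, Arnt at 1.01 and 0.871, and Epas1, past the fold in suffix 2 alone, at 0.938 and 1.65. Ero1l, an oxidase of the endoplasmic reticulum, was at 1.74 and 0.832, and the branching enzyme Gbe1, which is also a glycogen gene, at 1.86 and 1.47. Bnip3l, the paralog of Bnip3, was at 1.15 and 0.728. Angptl4 was below 1 in both libraries, at 0.863 (0.827 to 0.901) and 0.693 (0.616 to 0.777). Egln2 was at 1.19 and 0.820, and Kdm4b at 1.30 and 0.772. The list includes 15 genes too sparse to be tested, of which 1 in suffix 1 and 7 in suffix 2 had no UMI in high-score nuclei.

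Of 17 tested glycogen genes none was higher in both libraries, beside 0.801% of all genes. The brain-type phosphorylase Pygb was the 1 called lower, beside 3.18% of all. Gbe1, the glycogen branching enzyme, was at 2896 against 1554 CPM, a ratio of 1.86 (1.83 to 1.89), in suffix 1, and at 1568 against 1070 CPM, a ratio of 1.47 (1.42 to 1.51), in suffix 2. Pygb was at 32.9 against 62.3 and 9.85 against 38.4 CPM, while the liver-type phosphorylase Pygl had ratios of 1.32 and 1.52. The glycogen-targeting phosphatase subunits Ppp1r3b (1.42 and 1.57) and Ppp1r3c (1.42 and 1.52) were above 1 in both libraries, and the synthases Gys1 and Gys2 were at 1.2 and 1.22, and at 1.10 and 0.965.

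**Figure D3:**
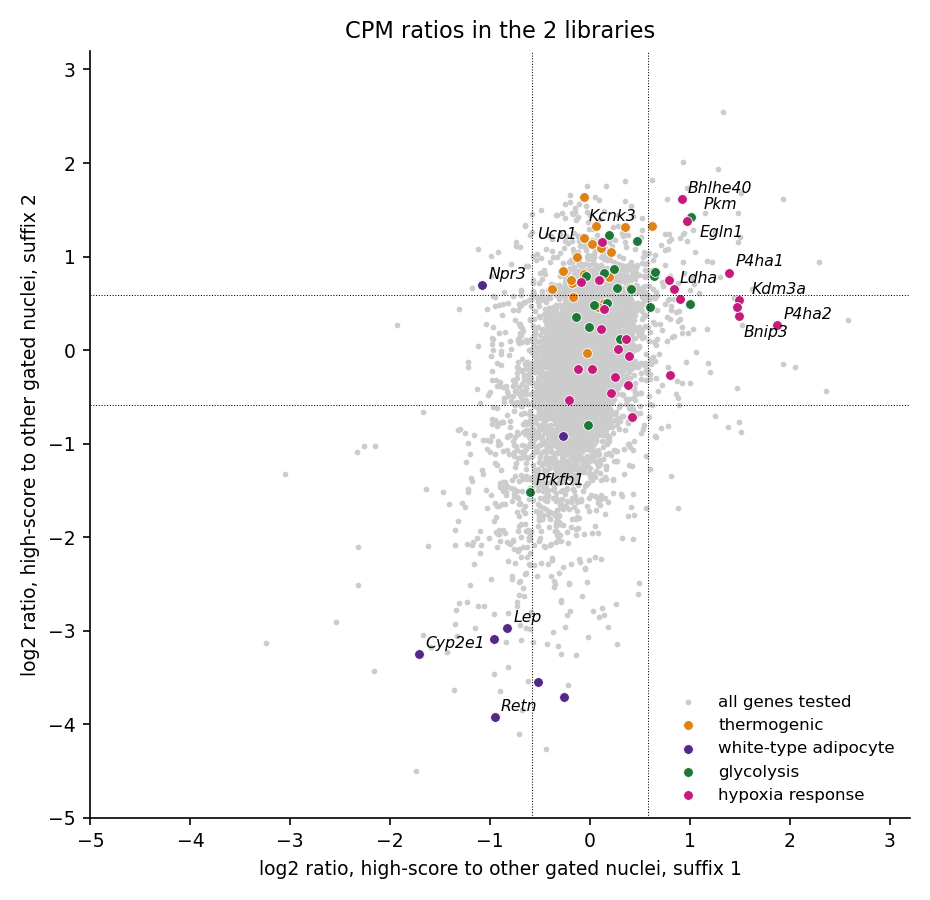
Log2 ratio of CPM between high-score and other gated nuclei in suffix 1 (x axis) and suffix 2 (y axis). Grey points are the 8113 genes tested, coloured points the members of 4 lists, and dotted lines a ratio of 1.5 in either direction. Thermogenic genes lie high in suffix 2 (median ratio 1.78) and near 0 on the log2 scale in suffix 1 (median ratio 0.994), and 7 of 8 white-type genes lie below 0 in both, Npr3 being the exception.

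The libraries also differed in how thermogenic and white-type genes moved with the score. Thermogenic genes had a median ratio of 0.994 in suffix 1 and 1.78 in suffix 2, where 16 of 20 tested genes were at 1.5 or more, beside 7.84% of all genes. The potassium channel Kcnk3 was the 1 gene of the 20 called in both (1.53 and 2.52), beside 0.801% of all. Ucp1 was at 1041 against 1029 CPM in suffix 1, a ratio of 1.01 (0.987 to 1.04), and at 1626 against 738 CPM in suffix 2, a ratio of 2.20 (2.13 to 2.28). Ppargc1a, the coactivator of mitochondrial genes, was at 753 against 785 CPM in suffix 1 and at 23768 against 10371 CPM in suffix 2. Its level thus parted the libraries far more than it parted the nuclei within them.

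Of 8 tested white-type adipocyte genes 4 were called lower in both libraries, beside 3.18% of all genes, with medians of 0.540 and 0.111 beside 0.974 and 0.943 for all. Leptin (Lep) was at 3.61 against 6.40 CPM in suffix 1 and 4.17 against 32.6 CPM in suffix 2, and resistin (Retn) at 3.03 against 5.87 and 6.44 against 97.6 CPM. Car3, carbonic anhydrase 3, which is abundant in white adipocytes, was at 334 against 1004 CPM and 416 against 3758 CPM. Ucp1 took at least 0.05% of UMIs in 69.3% of high-score nuclei (66.3 to 72.2) and 71.3% of the others (70.3 to 72.3) in suffix 1. In suffix 2 it did so in 86.9% (83.2 to 90.1) against 43.5% (41.9 to 45.2). Among barcodes under the adipocyte share with 10 or more UMIs of the other-cell genes, which should lack it, it did so in 33.0% of 215 in suffix 1 (median 3270 UMIs) and 15.97% of 720 in suffix 2 (median 3661.5 UMIs). The median share per nucleus of the gate's adipocyte genes was 1.25% in high-score nuclei and 1.75% in the others of suffix 2, and 1.13% and 1.24% in suffix 1.

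Since Ucp1 moved with the score in suffix 2, the comparison was repeated among gated nuclei with at least 0.05% of UMIs in Ucp1, a choice made after the data had been seen. In suffix 1 the ratios stayed close to those above, with Pkm at 2.04, P4ha1 at 2.61 and Kdm3a at 2.79. In suffix 2 Pkm was at 1.62 instead of 2.68, Hk2 at 1.31 instead of 1.74, Pfkl at 1.27 instead of 1.79 and P4ha1 at 1.45 instead of 1.78. The summed level of the hypoxia list was then 1.60 times that of the compared nuclei in suffix 1 and 1.24 times in suffix 2, and that of the glycolysis list 1.33 and 1.2 times. Genes called higher numbered 36 of 6039 (0.596%), 32 of them among the 65, with 1 glycolysis gene (Pkm) and 2 hypoxia genes (Egln1 and Bhlhe40). Those called lower numbered 81 (1.34%), of which 73 were among the 258. In this range of Ucp1 both lists thus lay further above the compared nuclei in suffix 1 than in suffix 2, so the nuclei are named by their score here and not as a glycolytic or hypoxic cell type.

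**Figure D4:**
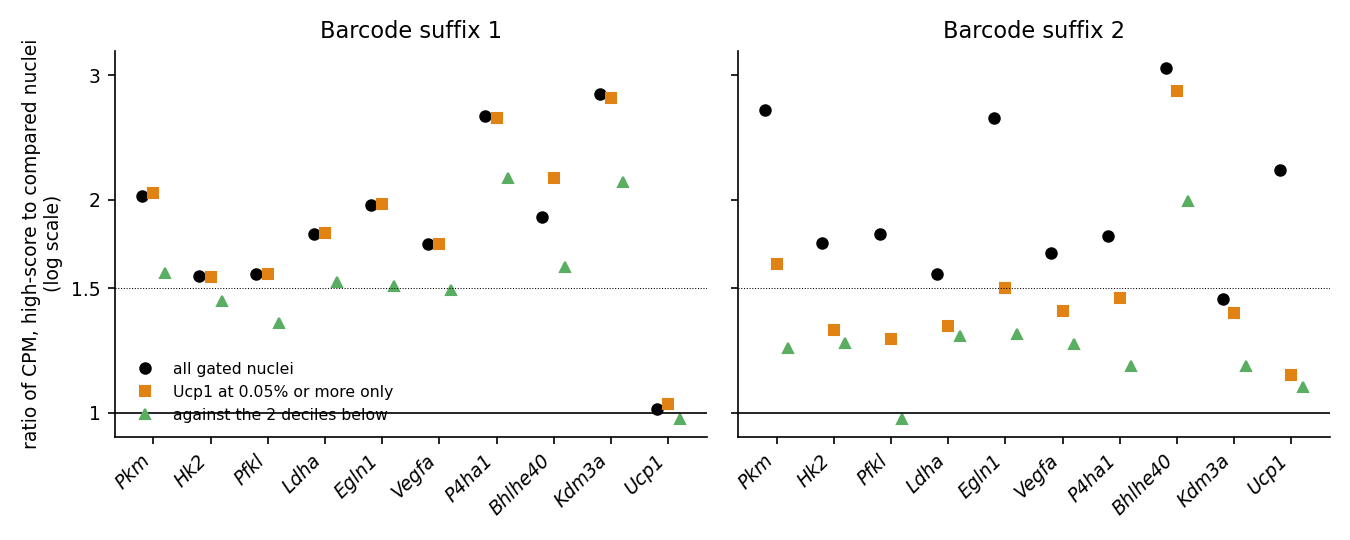
Ratio of CPM (y axis, log scale) for 10 genes (x axis) under 3 comparisons in each library. Black circles set high-score nuclei against all other gated nuclei. Orange squares set the top 10%, drawn anew among nuclei with 0.05% or more of UMIs in Ucp1, against the rest of these. Green triangles set high-score nuclei against the 2 deciles of the score just below. The dotted line is a ratio of 1.5. In suffix 2 Pkm goes from 2.68 to 1.62 and 1.23 and Ucp1 from 2.20 to 1.13 and 1.09.

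The levels were then followed over deciles of the gated nuclei ordered by the score. In suffix 1 Kdm3a was at 120 CPM in the first decile, 127 in the fifth, 234 in the ninth and 422 in the highest. In suffix 2 it was at 96.6, 102, 136 and 153 CPM. Pkm went from 270 in the first decile to 449 in the ninth and 639 CPM in the highest in suffix 1, and from 47.1 to 256 and 297 CPM in suffix 2. The step from the ninth to the highest decile was thus 1.42 times in suffix 1 and 1.16 times in suffix 2. Bnip3 stood at 231 CPM in the first, 394 in the ninth and 724 in the highest decile of suffix 1, and at 331, 273 and 402 CPM in suffix 2.

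Ucp1 was flat in suffix 1, at 999 CPM in the first decile, 1065 in the ninth and 1041 in the highest. In suffix 2 it was at 327 CPM in the first, 556 in the fifth, 1503 in the eighth and 1625 in the highest decile. Car3 ran the other way there, at 5865 CPM in the first, 4327 in the fifth, 781 in the eighth and 417 in the highest decile. Against only the 2 deciles just below them, high-score nuclei had 18 genes higher (0.222%) and 53 lower (0.653%) in both libraries, with no glycolysis gene and 1 hypoxia gene, Bhlhe40, among the former. This comparison, too, was chosen after the data had been seen.

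**Figure D5:**
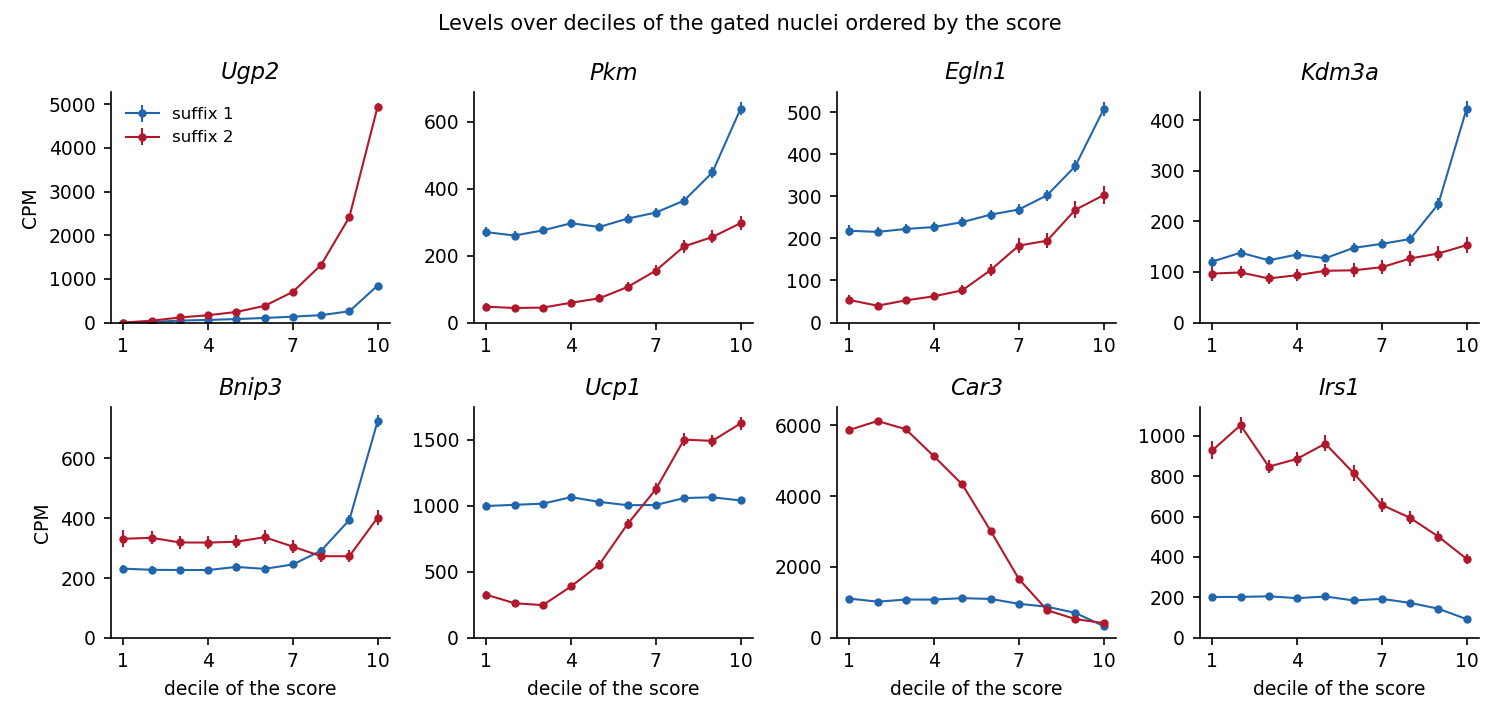
CPM (y axis) of 8 genes over deciles of the gated nuclei ordered by the score (x axis, the highest decile being the high-score nuclei) in suffix 1 (blue) and suffix 2 (red). Points are summed CPM and bars exact 95% counting intervals. Kdm3a and Bnip3 step up at the last deciles of suffix 1, and Ucp1 and Car3 cross over the range of suffix 2.

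Impa2, an inositol monophosphatase, led the 15 genes with the highest ratios outside the rule, with 197 against 78.4 CPM in suffix 1 and 134 against 22.9 CPM in suffix 2, ratios of 2.51 (2.36 to 2.66) and 5.83 (5.08 to 6.70). Ano1, a calcium-activated chloride channel, was at 642 against 264 and 28.0 against 7.34 CPM, and Bsg, the basigin chaperone of lactate transporters, at 372 against 132 and 132 against 57.2 CPM. Mtss1, an actin-binding protein of curved membranes, was at 1847 against 661 CPM, a ratio of 2.79 (2.74 to 2.85), and at 1058 against 476 CPM, a ratio of 2.22 (2.13 to 2.32). Impa2, Bsg and Mtss1 also stood at 1.5 or more in both libraries among nuclei with Ucp1, at 3.49, 1.59 and 1.98 in suffix 2.

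The AP-1 factor Fosl2 was at 92.4 against 18.9 CPM, a ratio of 4.89 (4.43 to 5.39), and at 97.4 against 50.7 CPM, a ratio of 1.92 (1.67 to 2.20). Perm1, a regulator of oxidative genes in muscle, had ratios of 1.92 and 3.10, Pla2g7, a secreted phospholipase of platelet-activating factor, 1.90 and 4.02, and Mfsd2a, a lysophospholipid transporter, 2.38 and 2.39. The 15 also included Pkm and Bhlhe40, described above, and Ptp4a3, Slc25a34, Mapt, Ier3 and Lgr6. Of 11 tested immediate early and heat shock genes 2 were called higher, Ier3 and Hsph1, beside 0.801% of all genes. By library, 2 of the 11 reached 1.5 in suffix 1, beside 1.89% of all genes, and 7 in suffix 2, beside 7.84%. The summed level of this list was 1.33 times that of the other gated nuclei in suffix 1 and 1.99 times in suffix 2.

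Dgat2 and Irs1 were among the genes lower in both libraries. Dgat2, which makes the last step to triglyceride, was at 291 against 599 CPM in suffix 1, a ratio of 0.487 (0.465 to 0.509), and at 117 against 331 CPM in suffix 2, a ratio of 0.355 (0.316 to 0.398). It was the 1 gene of 21 tested lipogenesis genes called, beside 3.18% of all genes called lower. Irs1, the insulin receptor substrate, was at 92.6 against 190 CPM and 389 against 808 CPM, ratios of 0.488 and 0.482. It was the 1 of 24 tested insulin and FOXO genes called, beside the same 3.18%. Among nuclei with Ucp1 these ratios were 0.511 and 0.630 for Dgat2 and 0.520 and 0.557 for Irs1, so both passed the fold there too. The 15 genes with the lowest ratios included Heph, a copper-dependent iron oxidase (6.64 against 22.2 CPM and 1.52 against 34.4 CPM) and the peroxisomal transporter Abcd2 (25.4 against 65.5 and 17.8 against 222 CPM).

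Oxidative lists were near even in suffix 1. None of 74 tested respiratory chain genes and none of 26 tested TCA cycle genes was called in either direction. Their medians were 1.11 and 1.30, and 1.02 and 1.33. Beside these and the lists below, 0.801% of all genes were called higher and 3.18% lower. Of 26 fatty acid oxidation genes 1, the trifunctional protein subunit Hadhb, was higher (1.59 and 1.74). Single genes were lower in 3 other lists, Gnai1 of 19 receptor and cAMP genes, Mthfd2 of 11 integrated stress response genes and Hlf of 16 clock genes. Stx4a, the gene targeted in Ucp1-STX4KO mice, was at 63.0 against 59.8 CPM, a ratio of 1.05 (0.951 to 1.16), and at 53.4 against 48.6 CPM, a ratio of 1.10 (0.915 to 1.31), intervals that include 1. None of 8 tested syntaxin 4 partner genes was called. The 11 pyroptosis genes were too sparse to be tested one by one, with a summed 13.6 against 14.4 CPM in suffix 1 and 24.2 against 31.4 CPM in suffix 2.

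Markers of other cell types were low in both groups of nuclei. The summed level of 6 macrophage markers was 16.03 against 23.6 CPM in suffix 1 and 30.7 against 52.8 CPM in suffix 2, that of 6 endothelial markers 7.22 against 5.81 and 9.47 against 17.4 CPM, and that of 6 fibroblast markers 40.1 against 31.8 and 57.6 against 82.7 CPM. Mural (15.9 against 15.4 and 12.5 against 15.5 CPM), skeletal muscle (2.89 against 3.16 and 45.5 against 43.5 CPM) and lymphocyte markers (5.63 against 3.55 and 11.7 against 37.9 CPM) were as sparse. The Schwann list was higher in both libraries, at 135 against 83.8 and 188 against 142 CPM. Mbp alone was 123 against 68.6 and 163 against 111 CPM of this. Its defining gene Sox10 had 0 UMIs in the high-score nuclei of both libraries. It also had only 3 in the other gated nuclei of each, too few for this 0 to tell anything. Markers with 0 UMIs included Vwf, Acta2, Ckm, Acta1 and Cd3e in those of suffix 1, and Cdh5, Emcn, Kcnj8 and Pax5 in those of suffix 2. None of these was absent from the other library. In suffix 2 Vwf was at 1.89 against 1.27 CPM, Acta2 0.758 against 0.362 and Ckm 1.52 against 0.770. Acta1 was at 2.27 against 2.04 there, and Cd3e at 0.379 against 0.589. In suffix 1 Kcnj8 was at 2.60 against 1.14 CPM, Emcn 0.722 against 0.411 and Pax5 0.289 against 0.197. Cdh5 was at 0.578 against 0.642 there, and the lymphocyte marker Bank1 at 3.32 against 0.740. The part of these transcripts in the ratios above was not tested.

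The same gate and share were then applied to the aging matrix, whose libraries the rule does not use. It holds 30000 barcodes, of which 1225 passed the gate and 123 were high-score, with a median of 1889.5 to 2276 UMIs in them per library. These nuclei were thus shallower than those of the 3-month-old mice, and the score was 0 in 38.2% to 54.8% of the gated nuclei per library. Levels are given as UMIs observed over those expected from the other gated nuclei, summed over the 3 suffixes. Of the genes higher in the 3-month-old libraries, 54 had at least 50 UMIs there, and 36 of them (66.7%) were above 1, beside 47.4% of all 6913 genes. At 1.5 or more were 5 of the 54 (9.26%), beside 6.22% of all, a share near that background. The counting interval lay above 1 in 5 of the 54, beside 287 of all 6913. It also did so in 5 of the 191 genes from the lower group. Of 191 genes from the lower group, 135 (70.7%) were below 1, beside 52.6% of all, and 51 (26.7%) were at 1/1.5 or less, beside 12.9% of all. The median ratio was 1.09 for the former, 0.829 for the latter and 0.985 for all.

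Single genes differed in how they held. Mtss1 had 172 UMIs against 119 expected, a ratio of 1.45 (1.24 to 1.69), and was at 1.40, 1.56 and 1.40 in the 3 suffixes. For the other leading genes described with it above, the intervals included 1. Impa2 was at 1.14 (0.652 to 1.85), Ano1 at 0.971 (0.726 to 1.27) and Bsg at 1.04 (0.633 to 1.60). Pla2g7 was at 1.53 (0.999 to 2.24), Perm1 at 1.14 (0.418 to 2.48) and Fosl2 at 0.508 (0.138 to 1.30). Mfsd2a had 0 UMIs against 1.09 expected. Hk2 had 329 against 275 expected, a ratio of 1.2 (1.07 to 1.33), and Pfkl 43 against 28.1, a ratio of 1.53 (1.11 to 2.06). Pkm was at 1.25 (0.983 to 1.56), Egln1 at 1.25 (0.952 to 1.61), Vegfa at 1.12 (0.975 to 1.29), Ldha at 1.18 (0.852 to 1.59) and P4ha1 at 0.969 (0.554 to 1.57), intervals that include 1. Among the lower genes Cyp2e1 was at 0.254 (0.0692 to 0.650) and Abcd2 at 0.435 (0.208 to 0.8), while Car3 was at 1.01 (0.926 to 1.09) and Dgat2 at 1.01 (0.892 to 1.13). Ucp1 was at 1.03 (0.934 to 1.14). Stx4a gave 8 UMIs against 16.9 expected, a ratio of 0.473 (0.204 to 0.932).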

How the data were processed

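Single-nucleus RNA of mouse iBAT was measured with the 10x Genomics 3′ assay in 5 libraries, deposited as 2 matrices. The authors deposited raw UMI counts per gene and barcode, with no normalization, made with Cell Ranger 6.1.2 on mm10 (Seurat 4.1.0 is also in the submitters' processing notes). The annotation release and whether intronic reads were counted are not given in the sources used here. The matrix of 3-month-old mice holds 116053743 UMIs over 32285 genes, 76195924 in suffix 1 (11201 barcodes, 86.7% gated) and 39857819 in suffix 2 (9106 barcodes, 43.5% gated).

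UMIs were summed over nuclei within each suffix and ratios of CPM were given exact conditional binomial 95% intervals, with Clopper-Pearson intervals for shares and Poisson intervals for levels, in Python 3.11.15 with numpy 2.4.6, scipy 1.17.1, pandas 2.3.3 and matplotlib 3.10.9. The calculation was tested on simulated data. No doublet caller was run. The gate allows up to 2 UMIs of other-cell genes and does not mark doublets of 2 adipocytes, and leaving out the deepest 10% of nuclei was an alternative. The members and gene lists were chosen with earlier results of these data known. Named genes were the 6 rule genes, all detected glycolysis, glycogen and hypoxia genes, called members of other lists, Ucp1, Stx4a, and the 15 highest and 15 lowest called genes by geometric mean ratio without serial symbols. Ppargc1a, Npr3, Pde3a and Pde3b, and the single markers of other cell types, were named after their values were seen. Positions are from GENCODE on GRCm38, matched by identifier for 134 of 134 named genes. Values of 2 genes are not reported here.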

Additional observations from a re-analysis of the deposited data

Results flagged for a closer look

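The libraries of 3-month-old mice went opposite ways by at least 1.5 times for 3 genes of the lists. The difference was not tested, and since no label ties a suffix to a genotype, it cannot be told apart from any other difference between the libraries. Pde3a and Pde3b, the phosphodiesterases that break down cAMP in fat cells, crossed over. Pde3a was at 262 CPM in high-score nuclei against 521 CPM in the other gated nuclei of suffix 1, a ratio of 0.503 (0.480 to 0.528), and at 480 against 239 CPM in suffix 2, a ratio of 2.01 (1.89 to 2.14). Pde3b was at 3788 against 2322 CPM in suffix 1, a ratio of 1.63 (1.61 to 1.65), and at 2487 against 4430 CPM in suffix 2, a ratio of 0.561 (0.548 to 0.576). Npr3, the clearance receptor for natriuretic peptides, was at 40.1 against 84.7 CPM in suffix 1, a ratio of 0.474 (0.419 to 0.535), and at 918 against 568 CPM in suffix 2, a ratio of 1.61 (1.55 to 1.69).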

How the results depend on the processing

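No paired analysis was possible because the suffixes carry no replicate number and each matrix is 1 pooled sample. The 48 named genes called in both libraries kept the direction of the geometric mean ratio over both libraries in all 1104 values over 23 alternatives, while the counts moved. Taken by library, 4 of 2112 ratios turned, all in suffix 2: Pfkl (0.979), Gnai1 (1.17) and Prr5l (1.12) against the 2 deciles of the score just below, and Mthfd2 (1.01) with Ugp2 left out of the score. Counts are in the order of genes higher, genes lower, glycolysis genes higher and hypoxia genes higher (65, 258, 4 and 5). Genes higher and lower are out of 8113 tested unless another number is given. A fold of 2 gave 12, 54, 1 and 0. Scoring nuclei thinned to 1000 UMIs gave 36, 105, 1 and 2. Suffix 1 alone gave 232 and 860 of 11205 genes (2.07% and 7.68%), with 13 hypoxia genes. Suffix 2 alone gave 653 and 1549 of 8337 genes (7.83% and 18.6%), with 11 and 10 of the lists. Within nuclei with Ucp1, where the top 10% was drawn anew and 6039 genes were tested, the counts were 36, 81, 1 and 2. Against the 2 deciles of the score just below they were 18, 53, 0 and 1. For genes higher and lower only, a minimum of 50 UMIs gave 99 and 547 of 11279 genes (0.878% and 4.85%). One of 1000 UMIs gave 36 and 93 of 3822 (0.942% and 2.43%), beside 0.801% and 3.18% in the main setting. The top 20% of nuclei gave 42 and 129 (0.518% and 1.59%), with 1 glycolysis gene. Equal weights for the rule genes gave 43 and 79 with 8 hypoxia genes, leaving Ugp2 out of the score gave 8 hypoxia genes, leaving Pfkp out 1 glycolysis gene, and an adipocyte share of at least 1.2% gave 2. Some of these settings compare fewer UMIs, nuclei or libraries, and the cause of the moved counts was not tested in any of them. In the aging matrix the share above 1 was 60.5% to 66.7% over its alternatives. Genes under 200 UMIs in either library were not tested, so no statement covers them.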
